A study of Mus musculus with 8 samples.

Results

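The 6 genes described here were followed through the tumour-bearing brains of antibody-treated mice: the 3 activating receptors for the constant (Fc) part of IgG, Fcgr1, Fcgr3 and Fcgr4, the inhibitory receptor Fcgr2b, the signalling adapter Fcer1g, and Fcgrt, which encodes the neonatal Fc receptor. They were chosen by symbol, as the receptors and the shared adapter through which a therapeutic antibody can be bound, and are 6 of the 33696 genes in the count matrices. All libraries came from brains of mice of the genotype NestinCreERT2;Fus1;RFPTdT, a model of ZFTA-RELA ependymoma in which Cre driven by the Nestin promoter acts in neural progenitors, so every group carried a tumour and no tumour-free brain was compared. At 3 weeks of age the mice were assigned at random to 1 intrathecal dose of mavrilimumab, an antibody to the GM-CSF receptor alpha chain, at 5 mg/kg, or to vehicle IgG, and were followed to a humane endpoint. The study describes the cells as taken when the tumour recurred, while the labels give an age of 6 to 8 weeks, and the age at sampling of each library is not settled here. Both arms therefore received an antibody with an Fc part. There were 4 gene expression libraries, 2 per arm, and the study pooled several tumours per group without a label that says how many went into each library, so that p-values measure the spread between libraries. The study describes the cells as extravascular and sorted for CD45, a protein of blood cells that neural cells lack, and they were stained in the presence of an antibody that blocks the proteins of Fcgr2b and Fcgr3. Only mRNA was measured here.

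Receptors of the Fcgr family bind IgG that coats a target. Fcgr1 binds with high affinity, Fcgr3 and Fcgr4 with lower affinity, and all of them signal through the immunoreceptor activation motif of the Fcer1g adapter, which recruits the kinase Syk and drives phagocytosis, cytokine release and killing of the coated cell. Fcgr2b carries an inhibitory motif that recruits the phosphatase SHIP, encoded by Inpp5d, and it is the main Fc receptor of B cells. Fcgrt pairs with beta-2 microglobulin (B2m), takes IgG out of the path to the lysosome and moves it across endothelium and epithelium, which gives IgG its long life in blood. In the brain, microglia are the main resident cells with activating Fc receptors.

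Of the droplets, 39645 passed the limits of at least 1000 UMIs (500 for neutrophils), 200 to 6000 genes and at most 10% mitochondrial counts, and 31012 met the marker rule of exactly 1 class. A UMI is a counted mRNA molecule, and levels are given as CPM, the UMIs of a gene per 1000000 UMIs of the class. The 4 libraries differed in what they held. Vehicle IgG 1 kept 984 cells, 557 of them microglia, and only 4 NK cells, 1 B cell and 1 monocyte, so NK cells, B cells and monocytes were compared between 1 vehicle and 2 mavrilimumab libraries. Vehicle IgG 2 kept 26757 cells, of which 15390 were neural, and its immune classes carried neural RNA: Nnat, a neural gene, stood at 846 CPM in its microglia against 1.62 to 21.3 CPM in the microglia of the other 3 libraries. The median depth of microglia ran from 3063 UMIs per cell in vehicle IgG 2 to 13720 in vehicle IgG 1. Pairs of expression libraries shared 0 to 60 cell barcodes. The T cell receptor tables raise a doubt about labels. Their inner names give the opposite treatment in all 3 tables analysed here, and the table labelled mavrilimumab 1 shares 2491 of its 2749 barcodes with the expression library mavrilimumab 2, the table labelled mavrilimumab 2 shares 4867 of 5659 with mavrilimumab 1, and the vehicle table shares 182 of 193 with vehicle IgG 1. The expression libraries carry no second name, so directions between treatments below follow the expression labels. The classes carried their own markers. The monocyte class also held dendritic cell genes (Cd209a at 200.4 to 553 CPM and Xcr1 at 108 to 197 CPM in its 3 larger libraries), and the neutrophil class of vehicle IgG 2 held the basophil and mast cell genes Mcpt8, at 259.6 CPM, and Cpa3, at 209 CPM.

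Fcgr2b, Fcgr3, Fcgr4 and Fcer1g lie within a stretch of mouse chromosome 1, Fcgr1 on chromosome 3 and Fcgrt on chromosome 7. The stretches just before the start of 4 of them are shown because these 4 genes shared a myeloid pattern while 1 of them, Fcgr2b, was also a B cell gene (below). Each is the 120 bases before the RefSeq start in GRCm38.p6, in the direction of the gene. Capitals mark matches to AGAGGAA, a string found in sites for the myeloid factor PU.1, to TTCNNNGAA, the site of STAT factors downstream of interferon, and to GAAA repeated after any 2 bases, an interferon response element, each searched on both strands.
Fcgr1, chr3:96293970-96294089, minus strand: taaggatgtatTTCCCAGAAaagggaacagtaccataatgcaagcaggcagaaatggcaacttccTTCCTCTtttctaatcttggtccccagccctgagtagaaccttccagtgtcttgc
Fcgr4, chr1:171018806-171018925, plus strand: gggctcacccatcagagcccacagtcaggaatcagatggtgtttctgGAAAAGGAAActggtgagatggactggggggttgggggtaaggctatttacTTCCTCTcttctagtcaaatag
Fcgr3, chr1:171059404-171059523, minus strand: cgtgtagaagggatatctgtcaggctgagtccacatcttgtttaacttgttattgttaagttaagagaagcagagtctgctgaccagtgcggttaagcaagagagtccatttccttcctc
Fcgr2b, chr1:170976072-170976191, minus strand: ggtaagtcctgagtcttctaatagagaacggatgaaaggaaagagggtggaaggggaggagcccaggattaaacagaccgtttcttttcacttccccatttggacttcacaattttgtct
Fcgr1 held a PU.1-type match at bases -55 to -49 from the start and a STAT-type match at bases -109 to -101. Fcgr4 held a PU.1-type match at bases -22 to -16 and an interferon-type match at bases -73 to -64. In the 250 bases before the start of 32851 RefSeq promoters, AGAGGAA was found in 8.55%, TTCNNNGAA in 7.02% and the interferon-type element in 2.98%. The other 4 members held no full match in the same window. The Fcgr3 stretch ends in ttcctc, which is the match TTCCTCT without its last base. Matches that cross the start were not searched, and shorter forms of the strings were not counted. The matches are a description of sequence, not of binding.

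The members marked different classes. Microglia carried all 3 activating receptors, neutrophils carried Fcgr3 and Fcgr4 with almost no Fcgr1, NK cells carried Fcgr3 alone of the 4 IgG receptors at more than 10 CPM, and B cells carried Fcgr2b alone of the 4. Fcer1g was present in every activating class, and Fcgrt was the one member that neural cells carried at a level like that of microglia.

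**Figure D1:**
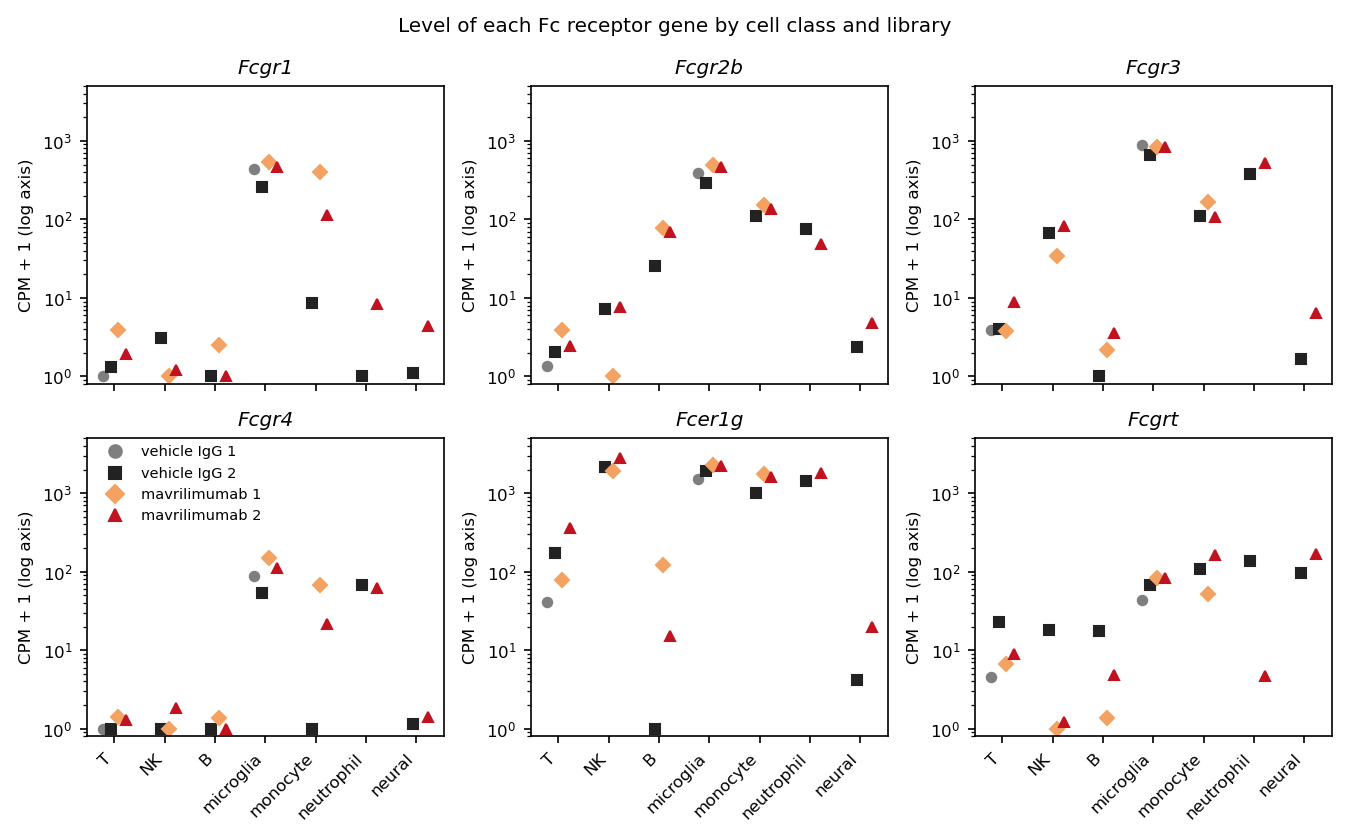
Level of each gene in CPM plus 1 on a log axis, by cell class; each point is 1 library with at least 20 cells of that class, and a point at 1 is a count of 0. Microglia stand at the top for Fcgr1, Fcgr2b and Fcgr3, B cells carry Fcgr2b without Fcgr3, NK cells carry Fcgr3 with little Fcgr2b, and Fcgrt in neural cells (95.8 and 169 CPM) lies above its 43.2 to 81.6 CPM in microglia.

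Fcgr1, the high-affinity receptor, was a gene of microglia and of some monocytes. In microglia it stood at 436 CPM in vehicle IgG 1, 260.2 in vehicle IgG 2, 538 in mavrilimumab 1 and 465 in mavrilimumab 2. In monocytes it stood at 7.72 CPM in vehicle IgG 2, 397 in mavrilimumab 1 and 113 in mavrilimumab 2, so that the monocytes of 1 library reached the range of microglia and those of another lay far below it. Neutrophils had 0 and 7.28 CPM, and no T, NK, B or neural sum of at least 20 cells passed 3.37 CPM. Within libraries, microglia were above monocytes by 1.81 ± 0.53 on the log2 scale (SE, 3 libraries, edgeR adjusted p = 0.0349), a call lost without mavrilimumab 2 (adjusted p = 0.124), and above neutrophils by 6.20 ± 0.73 (2 libraries, adjusted p = 0.000188).

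Fcgr3, a low-affinity activating receptor that NK cells use for killing of antibody-coated cells, had the widest myeloid and NK range among the IgG receptors. Its microglial levels were 888 CPM in vehicle IgG 1, 665 in vehicle IgG 2, 844 in mavrilimumab 1 and 825 in mavrilimumab 2. Neutrophils followed with 377 CPM in vehicle IgG 2 and 520.3 in mavrilimumab 2, monocytes with 108, 165 and 107, and NK cells with 66.8, 33.0 and 81.3. The difference between microglia and neutrophils, 0.67 ± 0.40 on the log2 scale, did not pass the test (edgeR adjusted p = 0.348), whereas microglia exceeded monocytes by 2.63 ± 0.20 (adjusted p = 6.24e-05) and monocytes were below neutrophils (-2.25 ± 0.40, adjusted p = 3.41e-07). NK cells exceeded T cells of the same libraries by 3.71 ± 0.28 (adjusted p = 1.05e-05). B cells had 0, 1.15 and 2.56 CPM, from 0, 3 and 2 UMIs. Of NK cells, 74 of 441 in vehicle IgG 2 and 174 of 365 in mavrilimumab 2 had a Fcgr3 UMI (16.8% and 47.7%). In mavrilimumab 1, 2 of 20 had one. Median depths in the 2 larger libraries were 2702 and 13132 UMIs per cell. With each cell thinned to 1000 UMIs their shares were 6.58% and 7.12%, against 0.356% and 0.93% of the T cells of the same libraries. In mavrilimumab 1, 0 of the 20 thinned NK cells had a UMI of an activating receptor. As a share of the level in free RNA, Fcgr3 in NK cells was at 1228%, 95.8% and 88.6% in vehicle IgG 2, mavrilimumab 1 and mavrilimumab 2, so it lay above free RNA only in vehicle IgG 2. T cells of the same libraries had 56.3%, 8.13% and 8.70%.

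Fcgr4, a receptor of myeloid cells that binds the mouse subclasses with the strongest effector function, was low everywhere and was found mainly in microglia, neutrophils and part of the monocytes. Microglia had 86.3, 52.3, 149.7 and 111 CPM in the order of libraries used above. Neutrophils had 67.0 and 61.9 CPM, within the microglial range, and the difference between the 2 classes was 0.25 ± 0.49 on the log2 scale (edgeR adjusted p = 0.829). Monocytes had 0, 66.8 and 20.3 CPM; microglia exceeded them by 2.09 ± 0.43 (adjusted p = 0.0076, and 0.0661 without mavrilimumab 2), and their difference from neutrophils was -2.62 ± 0.77 (adjusted p = 0.00404, and 0.0736 with size factors in place of TMM). T, NK, B and neural sums of at least 20 cells stayed at or below 0.821 CPM.

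Fcgr2b, the inhibitory receptor, was shared by microglia, monocytes, neutrophils and B cells. Microglia had 394 CPM in vehicle IgG 1, 287 in vehicle IgG 2, 487 in mavrilimumab 1 and 469.9 in mavrilimumab 2. Monocytes had 108, 153 and 133 CPM, neutrophils 75.4 and 47.3, and B cells 24.6, 77.7 and 67.9. Free RNA held Fcgr2b at 3.41 CPM in vehicle IgG 2, 33.1 in mavrilimumab 1 and 59.8 in mavrilimumab 2, so in mavrilimumab 2 neutrophils (79.1% of it) and B cells (113%) were at about the level of free RNA. Microglia were above monocytes by 1.63 ± 0.19 on the log2 scale (edgeR adjusted p = 0.00052) and above neutrophils by 2.59 ± 0.49 (adjusted p = 0.00454), while monocytes and neutrophils could not be separated (0.91 ± 0.46, adjusted p = 0.126). B cells exceeded T cells by 5.51 ± 0.48 (adjusted p = 0.000127), and Fcgr2b was the 1 member of 5 tested that B cells carried above T cells, beside 2.46% of all 13963 genes called higher; the call was lost when droplets of several classes were kept (adjusted p = 0.0711). Fcgr2b and Fcgr3 have near-identical extracellular sequences, so reads could be split between them. The split of reads was not tested. B cells had Fcgr2b at 24.6 to 77.7 CPM with Fcgr3 at 0 to 2.56, and NK cells had Fcgr3 at 33.0 to 81.3 CPM with Fcgr2b at 0 to 6.57.

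In the within-library fits, 5 of the 6 members were higher in microglia than in monocytes, where 15.2% of 10560 genes tested were called higher, and the sixth, Fcgrt, did not pass the test (-0.52 ± 0.31, edgeR adjusted p = 0.255). Against neutrophils 2 of 6 were higher, Fcgr1 and Fcgr2b, beside 5.59% of 9574 genes, and the other 4 did not pass. All 6 were higher in microglia than in T cells (24.2% of 15568 genes called higher), by 3.01 ± 0.41 for Fcgrt to 8.68 ± 0.39 for Fcgr4, and all 6 were higher in monocytes than in T cells (9.39% of 13888), by 2.95 ± 0.40 for Fcer1g to 6.69 ± 0.40 for Fcgr1. Between monocytes and neutrophils, Fcgr3 and Fcgr4 were lower in monocytes (16.7% of 5129 genes called lower) and Fcgrt was higher by 1.47 ± 0.49 (adjusted p = 0.0119; 12.8% called higher), a call that 6 of the alternative settings lost. For this Fcgrt difference the 2 libraries went opposite ways. In vehicle IgG 2 monocytes had 108 CPM and neutrophils 134, and in mavrilimumab 2 they had 163 and 3.64. Only 2 libraries had enough neutrophils and only 2 had enough neural cells for these fits. In vehicle IgG 2, mavrilimumab 1 and mavrilimumab 2, 24 of 42, 12 of 32 and 47 of 60 monocyte-class cells had Flt3, Cd209a or Xcr1. In cells without these genes Fcer1g lay above microglia in both mavrilimumab libraries, and Fcgr1 in mavrilimumab 1. Fcgr2b, Fcgr3 and Fcgr4 lay below microglia in each library. Their Fcgr4 in mavrilimumab 2, 99.9 CPM, was above its neutrophils, and in vehicle IgG 2 below. The fits were not rerun without the cells that had these genes.

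**Figure D2:**
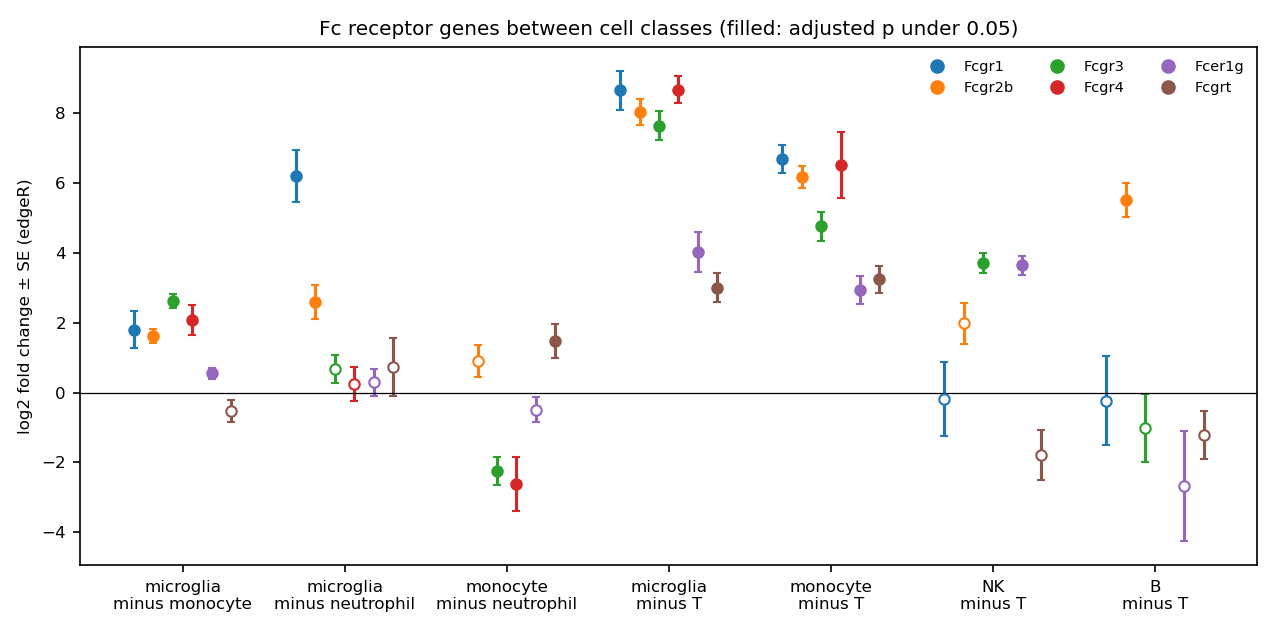
Log2 fold change between cell classes within libraries, with the standard error of the edgeR fit; filled points passed an adjusted p of 0.05 and Fcgr1 between monocytes and neutrophils and Fcgr4 in NK and B cells were too low to be tested. All 6 genes lie above T cells in microglia and in monocytes, Fcgr3 and Fcer1g do in NK cells, and Fcgr2b alone does in B cells.

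How single cells combined the activating receptors with the inhibitory one was read after each cell was thinned to 1000 UMIs. Of microglia, 18.7% in vehicle IgG 1, 20.4% in vehicle IgG 2, 29.3% in mavrilimumab 1 and 22.8% in mavrilimumab 2 had a UMI both of Fcgr2b and of at least 1 of Fcgr1, Fcgr3 and Fcgr4, and a further 35.9% to 44.0% had an activating UMI only. Cells with Fcgr2b alone were 5.92% to 8.42% of microglia. Neutrophils with a UMI were mostly on the activating side, with 31.1% and 47.9% activating only and 0% and 4.17% inhibitory only. B cells were the reverse, with 6.52% to 12.4% inhibitory only and at most 0.562% activating only. At this depth a missing UMI does not show that a cell lacked the mRNA.

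The summed UMIs were also read as a ratio of activating (Fcgr1, Fcgr3 and Fcgr4) to inhibitory UMIs, where at least 20 Fcgr2b UMIs were counted. In microglia it was 3.58 in vehicle IgG 1, 3.40 in vehicle IgG 2, 3.15 in mavrilimumab 1 and 2.98 in mavrilimumab 2, so the 2 mavrilimumab libraries lay below both vehicle libraries. The difference in log2 ratio was -0.19 (exact permutation test, two-sided, p = 0.333, the smallest that 2 against 2 libraries allow). In monocytes the ratio was 1.07, 4.10 and 1.80 in vehicle IgG 2, mavrilimumab 1 and mavrilimumab 2, a difference in log2 ratio of 1.34 (exact permutation test, two-sided, 1 vehicle against 2 mavrilimumab libraries, p = 0.667, where the smallest possible is 0.333) that shrank to 0.26 when Fcgr1 was left out of the ratio. B cells had ratios of 0.0396 and 0.0377 in the 2 mavrilimumab libraries, and NK cells of mavrilimumab 2, with 32 Fcgr2b UMIs, had 12.5. Levels of UMIs depend on how well each mRNA is captured, so the ratio compares classes and libraries, not molecules.

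**Figure D3:**
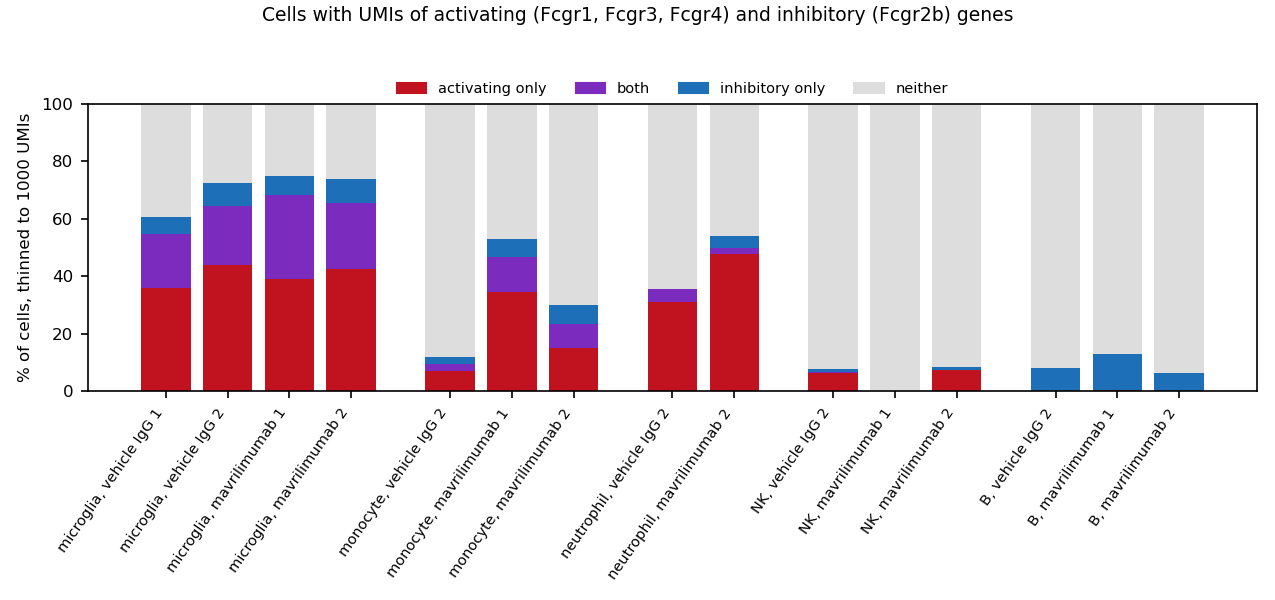
Share of cells, each thinned to 1000 UMIs, with UMIs of activating receptors only, of both kinds, of the inhibitory receptor only, or of neither; each bar is 1 library with at least 20 cells of the class. Microglia hold the largest share with both kinds (18.7% to 29.3%), neutrophils with a UMI are mostly activating only, and B cells with a UMI are nearly all inhibitory only.

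Fcer1g, the adapter, reached its level in microglia in NK cells too, which carried little of any IgG receptor but Fcgr3. NK cells had 2131 CPM in vehicle IgG 2, 1936 in mavrilimumab 1 and 2836 in mavrilimumab 2. Microglia had 1503, 1894, 2266 and 2202 CPM, neutrophils 1415 and 1790.2, and monocytes 1015, 1753 and 1594. These 4 classes were close in level. Microglia did not pass the test against neutrophils (0.29 ± 0.40 on the log2 scale, edgeR adjusted p = 0.727), monocytes did not pass the test against neutrophils (-0.48 ± 0.37, adjusted p = 0.36), and the excess of microglia over monocytes, 0.55 ± 0.17 (adjusted p = 0.0381), was lost with DESeq2 (adjusted p = 0.0941) and turned to -0.04 when droplets of several classes were kept. Monocyte-class cells without Flt3, Cd209a or Xcr1 had 1196 CPM in vehicle IgG 2, 2406 in mavrilimumab 1 and 2684 in mavrilimumab 2. NK cells exceeded T cells by 3.64 ± 0.26 (adjusted p = 6.43e-06), and Fcgr3 and Fcer1g were the 2 of 5 members tested that did, beside 4.17% of 14650 genes called higher. On simulated data this comparison called more unchanged genes than its threshold allows, so its adjusted p-values, also those of the list genes below, are too small.

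In T cells the Fcer1g sum was uneven, at 39.8 CPM in vehicle IgG 1, 174 in vehicle IgG 2, 77.4 in mavrilimumab 1 and 365 in mavrilimumab 2, and most of it sat in few cells. T cells with a UMI of the NK receptor genes Ncr1 or Klrb1c, a split chosen after the values were seen, had 745, 1149, 817 and 1413 CPM. They were 10 of 220, 315 of 3931, 187 of 5153 and 477 of 2688 T cells, and held 95.5%, 67.9%, 53.0% and 91.2% of the Fcer1g UMIs of all T cells. Cd8 T cells without either gene had 1.15, 86.2, 28.7 and 40.9 CPM, and Cd4 T cells had 2.66, 36.7, 42.9 and 45.7 CPM. T cells with Trdc, the constant gene of the delta receptor chain, had 168, 87.9, 244 and 672 CPM. The Cd4 and Trdc sets kept their cells with Ncr1 or Klrb1c, so they overlap the set with these genes. How much of their Fcer1g came from the shared cells was not counted. The range of these subsets was set against free RNA, read from barcodes with 10 to 300 UMIs, in which Fcer1g stood at 301, 26.5, 160.2 and 439 CPM. As a share of that level, whole T cells had 13.2%, 659%, 48.3% and 83.0%, and the microglial gene C1qa had 0.628%, 15.4%, 6.14% and 1.34%. In vehicle IgG 2 the T cell level of Fcer1g was thus above that of the free RNA, and in the other 3 libraries it was below it. The part of free RNA in the other values was not tested. A droplet with 1 UMI of the T cell gene Cd3e counted as a T cell, and the NK class allowed none. An NK cell or a doublet with a Cd3e UMI could thus fall among the T cells with Ncr1 or Klrb1c. The part of such droplets in the Fcer1g values was not tested.

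B cells showed Fcer1g mainly in 1 library. Vehicle IgG 2 had 0 UMIs in 62 B cells, mavrilimumab 1 had 121 CPM with a UMI in 112 of 178 cells (62.9%), and mavrilimumab 2 had 14.1 CPM with a UMI in 7 of 138 (5.07%). The median depths of these classes were 3426, 14908.5 and 5328.5 UMIs per cell, and thinned to 1000 UMIs the shares were 0%, 13.5% and 1.45%. Free RNA had Fcer1g at 160.2 CPM in mavrilimumab 1 and 439 CPM in mavrilimumab 2, of which the B cells had 75.6% and 3.21%; its part in these values was not tested. Against the limit of 3 counts in the vehicle library, 12.3 CPM, the mean of the mavrilimumab libraries was at least 5.49-fold higher, and mavrilimumab 2, the lower of them, at least 1.14-fold. The difference did not pass the test (edgeR adjusted p = 1.0). The B class of mavrilimumab 1 was of another kind, with Ighm, the constant gene of the IgM heavy chain, at 50919.6 CPM (233.9 and 1663 CPM in the B cells of vehicle IgG 2 and mavrilimumab 2) and a median of 14908.5 UMIs per cell, and 139 of its 178 cells had a UMI of the plasma cell genes Sdc1 or Tnfrsf17. Those 139 cells had Fcer1g at 112 CPM and Tyrobp, another myeloid adapter, at 0 CPM. Fcgr2b stood at 63.2 CPM in these 139 cells. The split was chosen after the values were seen.

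Fcgrt had a pattern of its own, with its higher levels in monocytes, neural cells and the neutrophil class of vehicle IgG 2. Neural cells had 95.8 CPM in vehicle IgG 2 and 169 in mavrilimumab 2, where 27.9% and 42.4% of cells had a UMI (8.21% and 16.0% when thinned to 1000 UMIs, against 1.37% and 0.707% of T cells). Monocytes had 108, 51.1 and 163 CPM, and microglia had 43.2, 65.8, 81.0 and 81.6. Microglia and neural cells of the same libraries differed by -0.45 ± 0.22 on the log2 scale (edgeR adjusted p = 0.263), and for Fcgr2b and Fcgr4 the same fit gave 7.72 ± 0.36 and 8.71 ± 0.32 in favour of microglia (both adjusted p = 0.0462; 2.58% of 14360 genes called higher), calls that were lost at a minimum of 2000 UMIs per cell (adjusted p = 0.0558 and 0.0587). Of all Fcgrt UMIs in kept cells, neural cells held 82.2% in vehicle IgG 2 and 20.2% in mavrilimumab 2, and microglia held 82.0%, 1.04%, 27.0% and 29.6% in the 4 libraries.

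Within the monocyte class Fcgrt followed the dendritic cell genes. Cells with a UMI of Flt3, Cd209a or Xcr1 (24, 12 and 47 cells in vehicle IgG 2, mavrilimumab 1 and mavrilimumab 2) had Fcgrt at 186, 114 and 196 CPM, and cells without (18, 20 and 13) had 36.9, 0 and 5.0 CPM. Fcgr3 ran the other way, with 8.09, 35.2 and 37.6 CPM in cells with these genes and 199, 269.7 and 429.8 CPM in cells without. In all 3 libraries the 2 sets of cells were on opposite sides for both genes. Fcgr4 was at 0, 35.2 and 3.22 CPM with and 0, 92.3 and 99.9 CPM without. The split was chosen after the values were seen and has no test, since fewer than 20 cells remained in 3 of the 6 sums.

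The immune classes of vehicle IgG 2 held neural RNA, and its part in their Fcgrt values was not tested. There, NK cells had Nnat at 18.3% of the level of neural cells, and neural RNA at that share would bring 17.6 CPM of Fcgrt, beside the 17.2 CPM measured. For T cells the same sum gave 19.3 CPM beside 22.2 measured, and for B cells 6.02 beside 16.4. For microglia and monocytes it gave 18.8 and 9.18 CPM beside 65.8 and 108 measured. The sum rests on 1 gene in 1 library. Free RNA held Fcgrt at 17.1, 61.4, 8.65 and 92.0 CPM in vehicle IgG 1, vehicle IgG 2, mavrilimumab 1 and mavrilimumab 2, and as a share of it microglia had 253%, 107%, 936% and 88.7%. The microglial level was thus close to that of free RNA in vehicle IgG 2 and mavrilimumab 2. Monocytes had 176%, 590.4% and 177% in the 3 libraries with enough cells, and T cells 21.2%, 36.1%, 66.7% and 8.78%. Neutrophils of vehicle IgG 2 had 134 CPM beside 49.1 from that sum, with 16 UMIs in 4 of 56 cells, while those of mavrilimumab 2 had 3.64 CPM. In mavrilimumab 2, where Nnat in these classes was at most 0.729% of its neural level, monocytes had 163 CPM and microglia 81.6, and NK cells had 0.205.

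**Figure D4:**
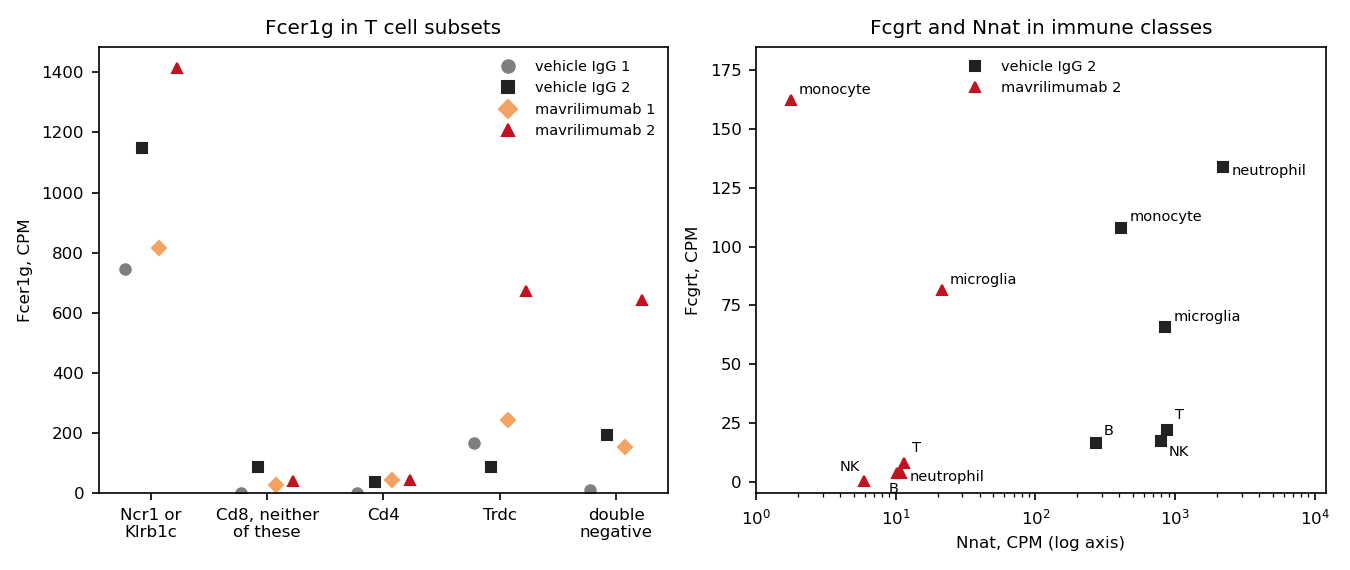
Left, Fcer1g in CPM in subsets of T cells, 1 point per library. T cells with Ncr1 or Klrb1c lie at 745 to 1413 CPM, above every other subset of the same library. The Cd4, Trdc and double-negative subsets overlap them, and only the Cd8 subset leaves such cells out. Right, Fcgrt against Nnat (log axis), both in CPM, in the immune classes of the 2 libraries with enough neural cells; T, NK and B cells have 16.4 to 22.2 CPM of Fcgrt in vehicle IgG 2 and at most 8.07 CPM in mavrilimumab 2, and monocytes and microglia have at least 65.8 CPM in both.

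Between treatments, microglia were the class best covered, with all 4 libraries. Both mavrilimumab libraries lay above both vehicle libraries for 5 of the 6 members, beside 12.9% of 12169 genes whose groups did not overlap in this direction. The means were 348 ± 125 against 502 ± 51.5 CPM for Fcgr1 (vehicle against mavrilimumab, SD, n = 2 libraries each), 341 ± 75.6 against 478 ± 11.9 for Fcgr2b, 69.3 ± 24.0 against 130.4 ± 27.3 for Fcgr4, 1698 ± 277 against 2234 ± 45.2 for Fcer1g and 54.5 ± 16.0 against 81.3 ± 0.446 for Fcgrt. Fcgr3 overlapped, with 776 ± 158 against 834.5 ± 13.6. None passed the test: the log2 differences, mavrilimumab minus vehicle, were 0.59 ± 0.34 for Fcgr1, 0.55 ± 0.28 for Fcgr2b, 0.17 ± 0.26 for Fcgr3, 0.96 ± 0.36 for Fcgr4, 0.46 ± 0.24 for Fcer1g and 0.66 ± 0.30 for Fcgrt. The edgeR adjusted p was 1.0 for each, and the smallest unadjusted p was 0.044, for Fcgr4. Over all genes this fit called 0% of 12169, with 347 at an unadjusted p under 0.05, and DESeq2 called 9. Vehicle IgG 1 and vehicle IgG 2 differed in depth and in neural RNA, and the values turned on them: without vehicle IgG 1 the differences of Fcgr1 (1.04, adjusted p = 0.0344) and Fcgr4 (1.39, adjusted p = 0.0364) passed and the fit called 855 genes, and without vehicle IgG 2 those of the 2 genes were 0.24 (adjusted p = 0.6) and 0.62 (adjusted p = 0.205) and the fit called 210.

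The shares of microglia with a UMI were also compared at equal depth. Fcgr1 UMIs were found in 72.4%, 56.6%, 74.7% and 80.3% of cells as sequenced. Thinned to 1000 UMIs, Fcgr1 was found in 24.1% of cells (95% exact interval 20.6 to 27.8) in vehicle IgG 1, 29.7% (24.9 to 34.9) in vehicle IgG 2, 37.4% (30.6 to 44.5) in mavrilimumab 1 and 31.8% (28.2 to 35.6) in mavrilimumab 2, against at most 0.298% of T cells. For Fcgr1, vehicle IgG 1 was thus the lowest by share at 1000 UMIs and vehicle IgG 2 by CPM. Thinned to 500 UMIs, vehicle IgG 2 was the lower of these 2 libraries (12.8% against 15.1%). The intervals of vehicle IgG 2 and mavrilimumab 2 at 1000 UMIs overlapped. Fcgr4 was found in 5.92%, 4.66%, 12.6% and 7.96%, and Fcgr3 in 42.0%, 51.3%, 49.0% and 48.5%. Fcer1g was found in 55.5%, 76.7%, 76.3% and 78.2%, so that the treatments, apart in CPM, overlapped in this measure; thinned to 500 UMIs they did not (38.2% and 51.6% against 52.0% and 59.4%). Fcgr3 also no longer overlapped at 500 UMIs, and Fcgrt, which did not overlap at 1000 UMIs, overlapped at 500 UMIs and without thinning (both p = 0.667 in the exact permutation test). Each depth was drawn at random 1 time and separately. How much of these changes between depths came from the draw was not tested. At 1000 UMIs the exact permutation test, two-sided, gave p = 0.333 for Fcgr1, Fcgr2b, Fcgr4 and Fcgrt, the smallest that 2 against 2 libraries allow, 0.667 for Fcer1g and 1.0 for Fcgr3. How many of all genes had shares that did not overlap was not counted, so these members cannot be set against the rest. Intervals cover counting error only.

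**Figure D5:**
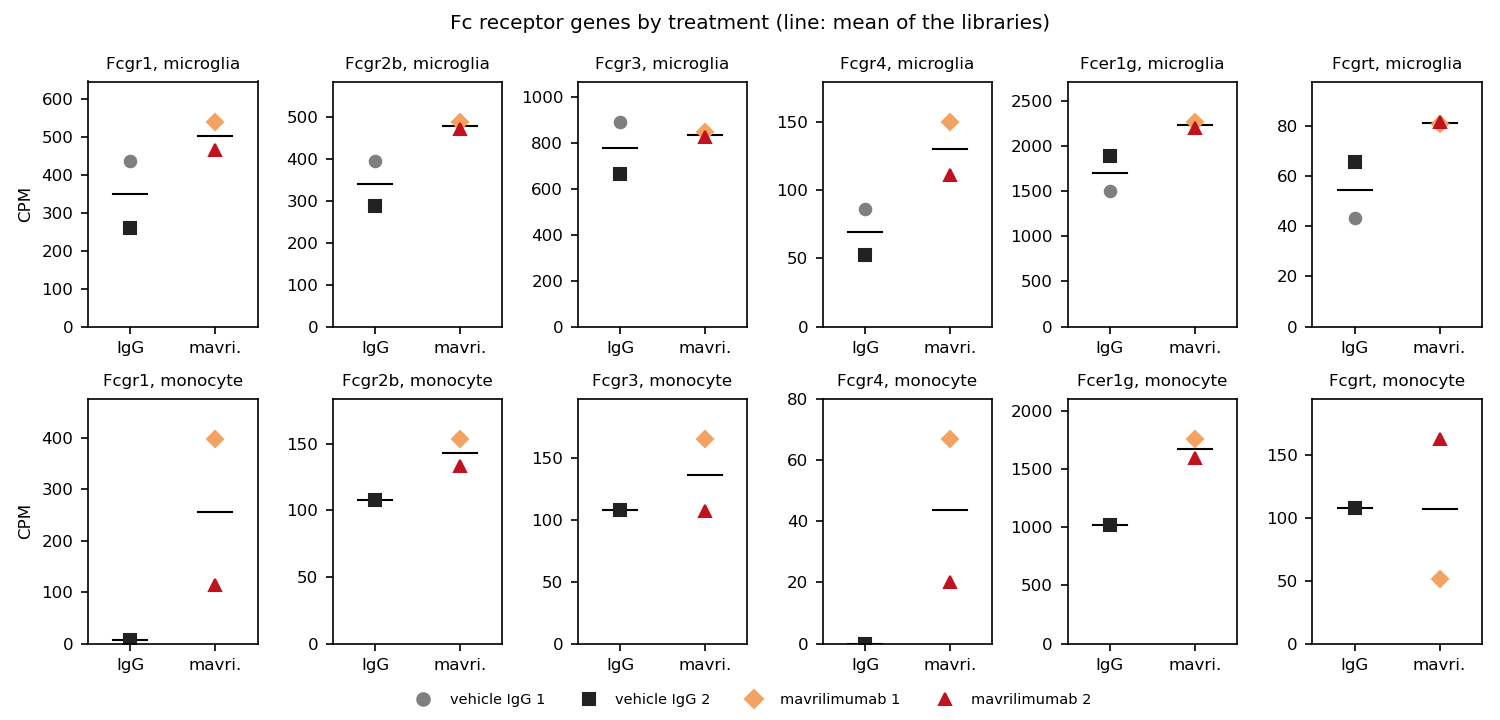
Level in CPM of each gene in microglia (top) and monocytes (bottom) by treatment, 1 point per library and a line at the mean; axes start at 0 and differ between panels. In microglia both mavrilimumab libraries lie above both vehicle libraries for all genes but Fcgr3, and in monocytes Fcgr1 goes from 7.72 CPM in the vehicle library to 113 and 397 CPM.

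In monocytes Fcgr1 was higher in both mavrilimumab libraries than in the 1 vehicle library with enough cells. It had 2 UMIs in 42 cells of vehicle IgG 2 (7.72 CPM), 101 UMIs in 32 cells of mavrilimumab 1 (397 CPM) and 128 UMIs in 60 cells of mavrilimumab 2 (113 CPM). The groups did not overlap, and the log2 difference was 5.00 ± 0.98 (edgeR adjusted p = 0.0213), 1 of the 6 members called beside 0.196% of 5626 genes called higher. Of all calls in this fit 11 of 61 were higher, and with size factors in place of TMM 103 of 216 were. With 1 vehicle library the spread between vehicle libraries was not measured and was taken from the mavrilimumab libraries. The p therefore compares these 3 libraries and cannot tell treatment from library. With 1 library against 2, groups do not overlap whenever the vehicle library lies at an end. How many of all genes did so was not counted. The call was lost at a mitochondrial limit of 5% (adjusted p = 0.0919) and when droplets of several classes were kept (adjusted p = 0.0758). The difference was present in cells with dendritic cell genes (8.09, 149.7 and 99.8 CPM) and in cells without (7.39, 596 and 175 CPM). Free RNA had Fcgr1 at 1.37 CPM in vehicle IgG 2, 31.9 in mavrilimumab 1 and 57.0 in mavrilimumab 2, so the background moved in the same direction; its part in the result was not tested. Fcgr4, at 0, 66.8 and 20.3 CPM, was at least 3.76-fold higher in the mean of the mavrilimumab libraries than the 11.6 CPM that 3 counts in the vehicle library would give and at least 1.75-fold higher in the lower of them, mavrilimumab 2, where 1 cell held 13 of the 23 UMIs, and did not pass the test (adjusted p = 0.36). Fcer1g (0.76 ± 0.40, adjusted p = 0.549), Fcgr2b (0.44 ± 0.47, 0.813), Fcgr3 (0.34 ± 0.49, 0.86) and Fcgrt (0.12 ± 0.58, 0.959) did not pass either.

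In NK cells Fcgrt went from 25 UMIs (17.2 CPM) in the 441 cells of vehicle IgG 2 to 0 in the 20 cells of mavrilimumab 1 and 1 UMI (0.205 CPM) in the 365 of mavrilimumab 2. The log2 difference was -6.02 ± 1.52 (edgeR adjusted p = 0.00111), beside 10% of 11400 genes called lower in the same fit. This fit too has 1 vehicle library, so treatment and library cannot be told apart. Nnat went from 790.3 CPM to 0 and 5.96 CPM in the same libraries, and its part in the result was not tested. Fcgr3 (0.10 ± 0.40, adjusted p = 0.998) and Fcer1g (0.17 ± 0.32, adjusted p = 0.998), the members NK cells carry, did not pass.

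In T cells none of the 5 members tested passed, and the fit called 0% of 14246 genes, with 721 at an unadjusted p under 0.05 and 153 called by DESeq2. Fcer1g differed by 1.18 ± 1.11 on the log2 scale (edgeR adjusted p = 0.869), a value that turned to -0.46 without mavrilimumab 2. Fcgr1, which T cells hardly carried (means of 0.161 CPM in vehicle and 1.91 CPM in mavrilimumab), differed by 3.02 ± 1.09. Fcgr2b differed by 1.51 ± 0.71, Fcgr3 by 0.995 ± 0.72 and Fcgrt by -0.82 ± 0.94. In B cells Fcgr2b, at 24.6 CPM in the vehicle library and 77.7 and 67.9 CPM in the mavrilimumab libraries, differed by 2.37 ± 1.14 (adjusted p = 1.0) from 6 UMIs on the vehicle side; that fit called 0% of 8721 genes, with 397 at an unadjusted p under 0.05 and 26 called by DESeq2. Neutrophils and neural cells had 1 library per treatment and no test. Neutrophil Fcgr3 was 377 and 520.3 CPM, and Fcgr4 was 67.0 and 61.9 CPM, in vehicle IgG 2 and mavrilimumab 2.

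The genes on which these receptors depend were read from 4 lists: 14 of activating signalling, 10 of inhibitory signalling, 3 partners (Tyrobp, Cd247 and B2m) and 13 other Fc receptors and relatives. Between treatments 1 of all the genes tested passed, beside 0.544% of genes called higher in NK cells: Cd247, the zeta chain of antigen receptor signalling, higher in mavrilimumab NK cells by 1.32 ± 0.43 (edgeR adjusted p = 0.0234), in the fit with 1 vehicle library. In microglia 0 of 14 activating, 0 of 10 inhibitory and 0 of 3 partner genes passed, with median log2 differences of 0.23, 0.45 and 0.66 beside -0.03 over all genes tested. B2m, the partner of Fcgrt, differed by 0.66 ± 0.22 in microglia (adjusted p = 1.0).

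Between classes these lists separated microglia from monocytes in both directions. Of the activating genes 4 were higher in microglia and 5 lower (15.2% and 13.1% of all genes tested), and of the inhibitory genes 1 was higher and 3 lower, with medians of -0.20 and -0.50 beside 0.08 over all genes. Inpp5d, the phosphatase that acts below Fcgr2b, was higher in microglia by 1.50 ± 0.17 (edgeR adjusted p = 0.000414). Gab2, a scaffold of Fc receptor signalling, was higher by 1.32 ± 0.18 (adjusted p = 0.00114). Pirb and Lilrb4a, inhibitory receptors of myeloid cells, were lower (-3.44 ± 0.36 and -1.95 ± 0.43, adjusted p = 0.00029 and 0.0109). Among the relatives Fcrls, a microglial gene of the Fc receptor-like family, was higher by 11.3 ± 0.37 (adjusted p = 5.76e-06), and Fcrla, an intracellular relative, was lower (-3.61 ± 0.61, adjusted p = 0.00296).

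Against neutrophils, 2 of the list genes were higher in microglia and 8 lower (5.59% and 6.02% of all genes). Fcrls and Lat2, an adapter of activating signalling, were higher in microglia by 6.99 ± 0.58 and 2.43 ± 0.52, and Ms4a2 and Fcer1a, the beta and alpha chains of the IgE receptor, were lower (-8.87 ± 1.15 and -8.36 ± 0.98, edgeR adjusted p = 0.000375 and 0.000176), in the class that carried Mcpt8 and Cpa3 in vehicle IgG 2. Pirb was also lower (-3.84 ± 0.48). Against neutrophils, monocytes were lower in Ms4a2 (-8.13 ± 1.47), Lilrb4a (-2.27 ± 0.40) and the kinase Fgr (-2.05 ± 0.41) and higher in Lat2 (1.56 ± 0.53). Against T cells, 9 of 14 activating genes were higher and 4 lower in microglia, beside 24.2% and 26.9% of all genes, and 9 were higher and 4 lower in monocytes, beside 9.39% and 11.1%, with medians of 3.01 and 3.06 beside -0.04 and -0.33 over all genes. Btk, a kinase of B and myeloid cells, was higher by 7.12 ± 0.27 in microglia and 6.44 ± 0.43 in monocytes. Pirb and Dok3, an adapter that dampens signalling, were higher in monocytes by 7.57 ± 0.32 and 6.38 ± 0.36. Cd247, Dok2 and Fyn, genes of T cell signalling, were lower in microglia (-7.38 ± 0.78, -4.95 ± 0.34 and -2.66 ± 0.33) and in monocytes (-5.78 ± 0.66, -3.04 ± 0.42 and -1.50 ± 0.21). Fcrls was higher in microglia by 10.2 ± 0.36.

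In NK cells 6 of 13 activating genes tested were above T cells and 1 below (4.17% and 5.04% of all genes). Over the 4 lists together Tyrobp (4.78 ± 0.25), Fcrl6 (4.48 ± 0.63) and Syk (3.97 ± 0.30) were the furthest up and Cd247 (-1.75 ± 0.22), Trim21 (-0.78 ± 0.22), a cytosolic antibody receptor, and Lcp2 (-0.66 ± 0.15) the furthest down. In B cells 5 of 6 other Fc receptors tested were above T cells, beside 2.46% of all genes, with Fcmr, the IgM receptor, higher by 11.6 ± 0.65, Fcer2a, the low-affinity IgE receptor, by 10.1 ± 0.65 and Fcrl5 by 8.27 ± 0.82 (edgeR adjusted p = 9.62e-06, 1.94e-05 and 0.000286). Cd247, Fyn and Lcp2 were lower in B cells, as were 3.06% of all genes (-6.62 ± 0.74, -2.69 ± 0.51 and -2.53 ± 0.42). Between microglia and neural cells Fcrl1, Tyrobp and Inpp5d were furthest up, by 10.3 ± 0.71, 9.11 ± 0.70 and 8.90 ± 0.29, with adjusted p between 0.0462 and 0.0495; at a minimum of 2000 UMIs, at a 5% mitochondrial limit or with droplets of several classes this fit called 0 genes.

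The genes whose level was most like that of each member were found over the 21 sums of a library and a class with at least 20 cells, which share libraries and depth, as a description. Fcgr1 was most like F11r (Pearson's r = 0.982 on log2(CPM + 10)), Adap2 and Spint1. Fcgr2b was most like Unc93b1 (0.981), Ctsh and Ctsz, Fcgr3 like Itgam (0.958), Gcnt1 and Hk3, and Fcgr4 like Slc11a1 (0.984), Cd33 and Lpcat2. Fcer1g was most like Tyrobp (0.947), the other adapter with an activation motif, then Itgax and Ptpre. Fcgrt stood apart, with Ccnd1 (0.926), Idh2 and Igsf8. Among the members the closest pair was Fcgr3 and Fcgr4 (0.90), Fcer1g was closest to Fcgr3 (0.82), and the least alike were Fcer1g and Fcgrt (0.12).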

How the data were processed

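Libraries were made with the 10x Genomics 5′ chemistry from sorted brain cells; 4 gene expression libraries were analysed, and 3 T cell receptor tables were used only to match barcodes. The values are UMI counts per gene and barcode, deposited by the authors as raw, unfiltered matrices. Per the file headers they were written by Cell Ranger 9.0.1, while the submitters' processing notes name Cell Ranger 7 and 7.1.0, Scanpy 1.8.2 and mm10; the annotation is not given in the sources used here. Total UMIs were 24354457, 148657643, 35785802 and 87127346 in vehicle IgG 1, vehicle IgG 2, mavrilimumab 1 and mavrilimumab 2.

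Cells were barcodes that held 1000 UMIs or more (500 for neutrophils) from 200 to 6000 genes, of which no more than 10% were mitochondrial. A class needed at least 2 UMIs over its marker genes (1 for T cells, 3 for neural cells), and droplets meeting several class rules were left out; no doublet caller was run. The members took no part in the class rules. Counts were summed per library and class with at least 20 cells and tested with edgeR 4.0.16 (quasi-likelihood, TMM, filterByExpr) in R 4.3.3, between treatments within a class and between classes with library as a block, with Benjamini-Hochberg adjustment over all genes tested and a threshold of 0.05. The fits were tested on simulated data: the estimates were recovered, the comparisons of classes over 3 or 4 libraries called more unchanged genes than the threshold allows, most of all NK against T cells, and the treatment fits of T cells, B cells and microglia and the fit of microglia against neural cells found few or none of the changes put in. Shares of cells were taken after thinning each cell to 1000 UMIs, with exact Clopper-Pearson 95% intervals, and shares and ratios were compared with two-sided exact permutation tests over libraries in SciPy 1.17.1. Free RNA was read from barcodes with 10 to 300 UMIs. Likeness used log2(CPM + 10) over genes with a mean of at least 20 CPM. DESeq2 1.42.0, size factors, no filter, 2000 UMIs, 5% mitochondrial UMIs, droplets of several classes, a replicate block, no library block and leaving out each library were tried.

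All 6 members are described, and in each comparison the lists give the 3 genes past the threshold that rose most and the 3 that fell most, or fewer. The members and lists were chosen with earlier results of these data known. The splits of T cells, B cells and monocytes and the promoter motifs were chosen after seeing the data. Some list genes, reference genes and subsets are not reported here.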

Additional observations from a re-analysis of the deposited data

Results flagged for a closer look

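The Fcgrt differences between treatments had opposite signs in microglia and NK cells, and that in microglia did not pass the test. The level was higher in both mavrilimumab libraries than in both vehicle libraries in microglia (log2 difference 0.66 ± 0.30, edgeR adjusted p = 1.0) and lower in both mavrilimumab libraries than in the 1 vehicle library in NK cells (-6.02 ± 1.52, edgeR adjusted p = 0.00111). The differences lay 6.67 apart on the log2 scale, and that distance was not tested. Nnat, the neural gene, had 790.3 CPM in NK cells from vehicle IgG 2, 0 CPM in those from mavrilimumab 1 and 5.96 CPM in those from mavrilimumab 2. Its part in the Fcgrt values of microglia was not tested.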

How the results depend on the processing

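Numbers of genes called moved by over 1.5 times as follows. With DESeq2 in place of edgeR they went from 0 to 153 (T cells between treatments), 1202 to 227 (NK cells), 0 to 26 (B cells), 0 to 9 (microglia), 61 to 27 (monocytes), 1510 to 544 (monocytes against neutrophils), 1349 to 889 (NK against T cells) and 372 to 3300 (microglia against neural cells). With no filter on low counts they became 1914 in NK cells, 361 in B cells, 23 in microglia and 359 in monocytes between treatments, 1526 for B against T cells and 2794 for microglia against neural cells. Size factors gave 216 in monocytes. A mitochondrial limit of 5% gave 37 in monocytes, 925 for monocytes against neutrophils and 0 for microglia against neural cells (4046 at an unadjusted p under 0.05 in edgeR), and a minimum of 2000 UMIs gave 0 for the last (4021 unadjusted). Droplets of several classes gave 107 in monocytes, 1788 for microglia against neutrophils, 139 for B against T cells and 0 for microglia against neural cells (1835 unadjusted). Without the library block the counts were 160 for microglia against neutrophils, 390 for monocytes against neutrophils, 1889 for monocytes against T cells, 78 for NK against T cells, 181 for B against T cells and 1814 for microglia against neural cells. Leaving out 1 library gave 0 to 855 calls in microglia and 0 to 0 in T cells between treatments, 473 to 962 for B against T cells, 758 to 1217 for NK against T cells, 4633 to 8522 for microglia against T cells, 1287 to 2883 for microglia against monocytes and 1095 to 3673 for monocytes against T cells, the lowest of the last 3 without mavrilimumab 2; the log2 ratio difference ran from -0.23 to -0.15 in microglia and from 0.75 to 1.94 in monocytes. Leaving out 1 library turned the sign of some log2 differences, whose ranges were, between treatments, -0.063 to 1.63 for Fcgr3, -0.46 to 2.66 for Fcer1g and -1.55 to 1.09 for Fcgrt in T cells, -1.06 to 0.42 for Fcgr3 and -0.18 to 0.55 for Fcer1g in NK cells, -0.044 to 0.42 for Fcgr3 in microglia and -1.04 to 0.67 for Fcgrt in monocytes. Between classes they were -0.35 to 0.65 for Fcgr4 and -1.02 to 4.28 for Fcgrt in microglia against neutrophils, -0.35 to 5.15 for Fcgrt in monocytes against neutrophils, -2.30 to 1.58 for Fcgr1 in NK against T cells and -0.10 to 0.34 for Fcgr1 in B against T cells. The turned end came without vehicle IgG 2 for Fcgrt in T cells and Fcgr3 in microglia and without mavrilimumab 2 for the others. Droplets of several classes turned Fcgr2b (-0.37) and Fcer1g (-0.22) in B cells between treatments, Fcer1g (-0.041) and Fcgrt (0.20) for microglia against monocytes, Fcgr3 (-0.094), Fcgr4 (-0.35) and Fcer1g (-0.66) for microglia against neutrophils, and Fcgr1 (3.29), Fcgr3 (2.93), Fcer1g (1.54) and Fcgrt (1.43) for B against T cells. DESeq2 turned Fcgr3 in NK cells (-0.10) and Fcgr1 for B against T cells (0.0030). The cause was not tested.

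The replicate numbers of the labels gave only 2 pairs, and no label ties a number to a shared animal, litter or day, so the block was not taken as a pairing. The deviations of the pairs correlated at 0.45 in T cells and 0.39 in microglia. With the replicate block 165 genes were called in microglia, 0 in T cells and no member. No replicate block could be fitted between treatments in NK cells, B cells or monocytes. Leaving out a library in these 3 comparisons, or in the class comparisons of 2 libraries, left no residual degrees of freedom and gave values with no test.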
